A study of Caenorhabditis elegans with 78 samples.

Results

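The genes described here are 10 Caenorhabditis elegans cuticle collagens named for the body shape of their mutants, dpy-2, dpy-3, dpy-7, dpy-8, dpy-10, dpy-13, rol-6, sqt-1, sqt-2 and sqt-3, out of 42048 genes in the count tables. They were chosen by name, with earlier results of these data known, and all 10 passed the filter on low counts that 15696 genes passed. The RNA came from whole young adult worms, grown at 25°C and collected at generation F3, in 24 of the 78 samples of the series. There were 4 libraries from each of 6 strains, labelled as independent cultures. The wild-type strain was N2. The jmjd-5(zr1234) strain has substitutions at conserved residues of jmjd-5, which encodes a JmjC-domain protein, rather than a deletion. The jmjd-1.2(zr1010) strain carries a mutation of jmjd-1.2, a histone demethylase gene. The jmjd-3.1/2/3 strain, called the triple mutant here, carries the alleles gk384 of jmjd-3.1, tm3121 of jmjd-3.2 and tm3197 of jmjd-3.3, which are genes for H3K27 demethylases. The quadruple mutant joins jmjd-5(zr1234) to the triple mutant, and the double mutant joins it to jmjd-1.2(zr1010). All strains, N2 included, were at 25°C, so the comparisons are between genotypes at that temperature.

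The C. elegans cuticle is a collagen exoskeleton secreted by the epidermis (the hypodermis) and rebuilt at each larval moult, and adults no longer moult. Collagen chains are hydroxylated and trimmed by enzymes, assemble as trimers and are then cross-linked outside the cell. Transcripts of cuticle collagens rise and fall with each moult cycle. The furrow collagens dpy-2, dpy-3, dpy-7, dpy-8 and dpy-10 are needed for the ring-shaped furrows of the cuticle, and their loss gives short, dumpy worms. Among the other 5, dpy-13 is another collagen whose loss gives dumpy worms. Alleles of rol-6, sqt-1 and sqt-2 twist the body so that the worm rolls, and sqt-3 alleles give dumpy or rolling worms.

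By the reference annotation, dpy-3 (WBGene00001065), dpy-7 (WBGene00001069) and dpy-8 (WBGene00001070) lie on chromosome X. The genes dpy-2 (WBGene00001064), dpy-10 (WBGene00001072), rol-6 (WBGene00004397), sqt-1 (WBGene00005016) and sqt-2 (WBGene00005017) lie on chromosome II, dpy-13 (WBGene00001074) on IV and sqt-3 (WBGene00005018) on V. The genes dpy-2 and dpy-10 share 1 protein-coding neighbour, T14B4.19, and dpy-13 lies beside another collagen gene, col-34.

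Library totals ran from 3087933 counts in quadruple mutant replicate 2 to 9906241 in jmjd-1.2(zr1010) replicate 3. The 4 N2 totals, 3927979 to 6372354, were all below the 4 jmjd-5(zr1234) totals of 6431200 to 7565222. N2 replicates 2 and 4 differed by no more than counting noise over all genes (mean chi-square of 0.963 per gene over 13307 genes), so they were summed as 1 sample and N2 has n = 3 in the tests. Yet 5 of the 9 collagens with enough counts differed between these libraries at a chi-square p under 0.001, against 0.376% of the 13307 genes. Each was lower in replicate 4, so the values of both libraries are given below. As a check of the labels, jmjd-1.2 was at 237 to 255 CPM (read counts scaled to a fixed library size) in N2 and at 0.0944 to 1.82 CPM in the 8 libraries of the strains labelled jmjd-1.2. The jmjd-3.1 level was 17.0 to 22.9 CPM in N2 and 19.6 to 29.8 CPM in the triple mutant, so whole-gene counts do not check that deletion. The point mutations in jmjd-5 are not checked by its RNA level either.

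All 10 collagens were higher in every mutant strain than in N2. Every library of every mutant strain lay above every N2 library for each of the 10 genes. A gene was called when edgeR's quasi-likelihood test gave an adjusted p below 0.01 and its change reached 1 on the log2 scale. In jmjd-5(zr1234), 10 of 10 were called higher, as were 16.6% of all genes tested. The count was 9 of 10 in jmjd-1.2(zr1010), where 8.44% of genes were called higher, and 9 of 10 in the triple mutant, where 10.2% were. It was 8 of 10 in the quadruple mutant, against 7.44% of genes, and 10 of 10 in the double mutant, against 16.6%. Non-overlap with every library higher was common, at 37.6% of genes for jmjd-5(zr1234), 28.6% for jmjd-1.2(zr1010), 27.8% for the triple mutant, 23.0% for the quadruple mutant and 24.6% for the double mutant. The median log2 fold change of the 10 was 2.19 in jmjd-5(zr1234), 1.63 in jmjd-1.2(zr1010), 2.28 in the triple mutant, 1.70 in the quadruple mutant and 2.36 in the double mutant. The medians of all genes lay between 0.02 and 0.10. These 5 comparisons share the N2 libraries. In whole-worm RNA, fewer cells of a type and less RNA per cell cannot be told apart. N2 also had the lower totals, and with the log2 library total as a term the counts were 10, 10, 10, 8 and 10 of 10, while the genes called higher were 12.8%, 4.49%, 8.27%, 4.38% and 13.5% of all genes tested, in the same order of strains. When changes were tested against 1 instead of 0 on the log2 scale (glmTreat), the calls fell to 1 of 10 in jmjd-1.2(zr1010), against 0.886% of genes, and to 0 of 10 in the quadruple mutant, against 0.268%, and were 8 of 10 in each of the other 3 strains, against 1.75% to 6.28%.

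**Figure D1:**
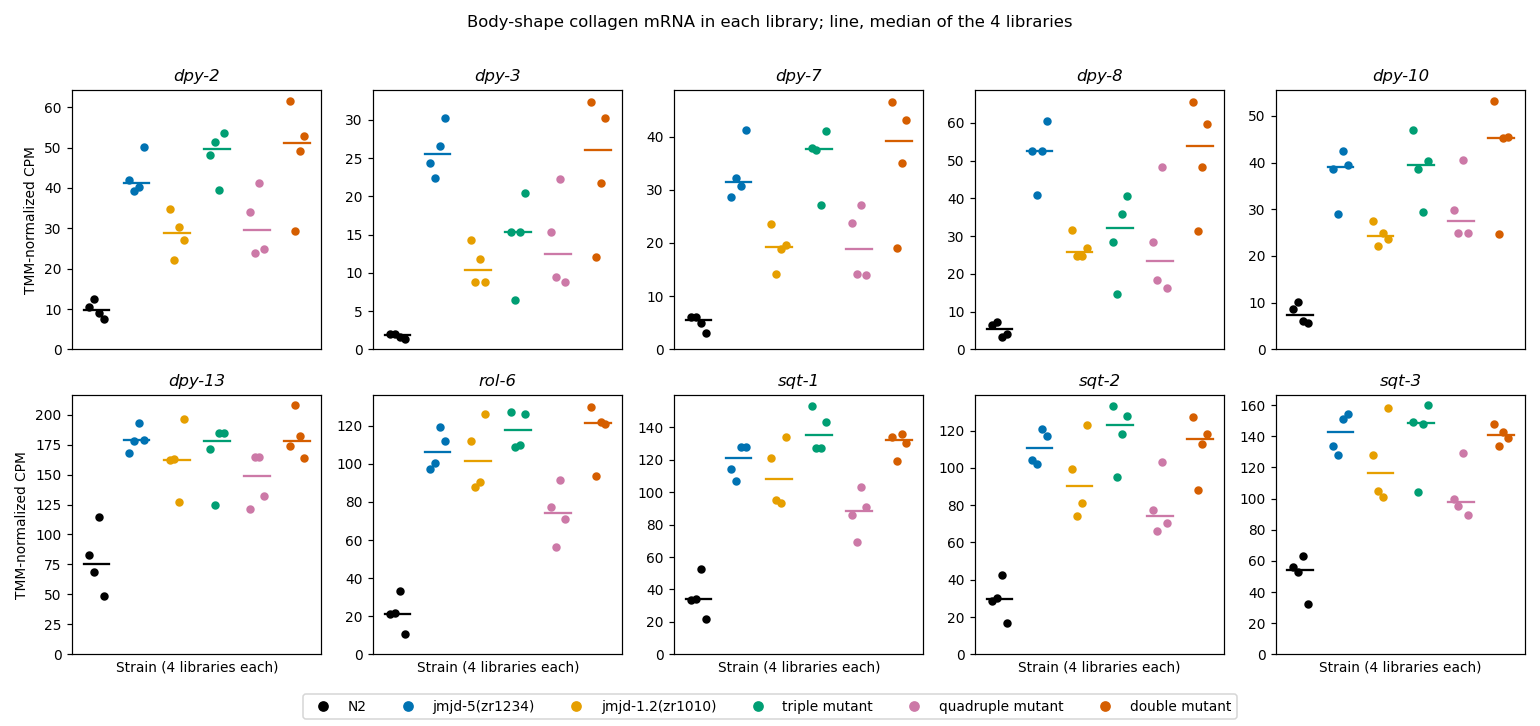
TMM-normalized CPM of each collagen in each library (points) for the 6 strains, with the median of the 4 libraries as a line and a separate y axis, from 0, in each panel. The N2 points lie below all mutant points in all 10 panels, for example at 1.40 to 2.07 CPM for dpy-3 against 6.43 CPM or more in the mutants.

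Among the furrow collagens, dpy-3 was the most changed. It was at 2.07, 1.98, 1.67 and 1.40 CPM in the 4 N2 libraries (6 to 13 reads each) and at 24.4, 22.4, 26.6 and 30.2 CPM in jmjd-5(zr1234). The groups are far apart, and the jmjd-5(zr1234) libraries lie close together. The fold change was 14.1 (log2 3.82 ± 0.44, SE, adjusted p = 3.34e-07, edgeR), with a 95% interval of 2.90 to 4.74 on the log2 scale. In jmjd-1.2(zr1010), dpy-3 was at 14.3, 8.82, 11.8 and 8.77 CPM, in the triple mutant at 15.3, 6.43, 15.3 and 20.4 CPM, and in the quadruple mutant at 15.4, 9.41, 22.3 and 8.75 CPM. Replicate 2 of the triple mutant stands low, and the 4 libraries of the quadruple mutant spread over 2.55-fold. In the double mutant the values were 32.3, 12.1, 21.8 and 30.2 CPM, replicate 2 being the low one. Against N2, dpy-3 was higher by log2 2.58 ± 0.48 in jmjd-1.2(zr1010) (adjusted p = 0.000257, edgeR), 2.96 ± 0.47 in the triple mutant (adjusted p = 3.58e-05), 2.96 ± 0.48 in the quadruple mutant (adjusted p = 6.18e-05) and 3.78 ± 0.45 in the double mutant (adjusted p = 3.33e-07).

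The gene dpy-8 followed a similar order. Its N2 libraries were at 6.52, 7.28, 3.34 and 4.20 CPM and its jmjd-5(zr1234) libraries at 52.6, 40.8, 52.5 and 60.6 CPM, an increase of 9.38-fold (log2 3.23 ± 0.38, adjusted p = 4.13e-07, edgeR). The lowest jmjd-5(zr1234) library is several times the highest N2 library. In the triple mutant the values were 28.4, 14.6, 35.9 and 40.6 CPM, in the quadruple mutant 28.4, 18.5, 48.2 and 16.2 CPM, and in the double mutant 65.5, 31.4, 48.2 and 59.7 CPM. As for dpy-3, replicate 2 was the lowest library in the triple mutant and in the double mutant. The range in jmjd-1.2(zr1010) was narrow, 24.7 to 31.7 CPM, and its log2 fold change was 2.27 ± 0.40 (adjusted p = 0.000131, edgeR).

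For dpy-7 the N2 libraries were at 6.04, 6.17, 5.004 and 3.03 CPM and the jmjd-5(zr1234) libraries at 28.7, 32.2, 30.7 and 41.3 CPM. The groups do not overlap, and N2 replicate 4 is the lowest of the 24 libraries. The increase was 6.38-fold in jmjd-5(zr1234) (log2 2.67 ± 0.30, adjusted p = 2.36e-07, edgeR). It was 6.80-fold in the triple mutant (27.1 to 41.0 CPM) and 7.14-fold in the double mutant (19.0 to 46.5 CPM). In jmjd-1.2(zr1010) it was 3.63-fold and in the quadruple mutant 3.88-fold, where the highest libraries were at 23.6 CPM and 27.2 CPM, below every jmjd-5(zr1234) library.

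The neighbours dpy-2 and dpy-10 had smaller fold changes in jmjd-5(zr1234) than dpy-3 and dpy-8. For dpy-2 the N2 libraries were at 10.5, 12.6, 8.90 and 7.47 CPM and the jmjd-5(zr1234) libraries at 42.0, 39.2, 40.3 and 50.2 CPM. For dpy-10 they were at 8.58, 10.1, 6.12 and 5.60 CPM and at 38.6, 29.1, 42.4 and 39.4 CPM. Every mutant library of both genes lies above the highest N2 library. The increases were 4.32-fold for dpy-2 (log2 2.11 ± 0.23, adjusted p = 1.27e-07, edgeR) and 4.83-fold for dpy-10 (log2 2.27 ± 0.23, adjusted p = 8e-08). In jmjd-1.2(zr1010), dpy-2 was at 22.1 to 34.7 CPM and dpy-10 at 22.1 to 27.6 CPM, their lowest mutant means, with log2 fold changes of 1.51 ± 0.23 and 1.65 ± 0.24. In the triple mutant, where dpy-3 and dpy-8 were at lower means than in jmjd-5(zr1234), dpy-2 and dpy-10 were at 39.5 to 53.6 CPM and 29.4 to 46.9 CPM, and their ranges overlap those of jmjd-5(zr1234).

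Of the other 5 collagens, rol-6 changed most. It was at 21.1, 21.6, 33.4 and 10.5 CPM in N2 and at 97.4, 100.3, 119.5 and 112 CPM in jmjd-5(zr1234), an increase of 4.80-fold (log2 2.26 ± 0.19, adjusted p = 4.46e-09, edgeR). N2 replicate 3 is the highest and replicate 4 the lowest of the N2 libraries, a pattern shared by dpy-13, sqt-1, sqt-2 and sqt-3. In jmjd-1.2(zr1010), rol-6 was at 112, 87.7, 90.7 and 126 CPM and in the triple mutant at 127, 109, 109.6 and 126 CPM. In the quadruple mutant it was at 77.1, 56.5, 91.3 and 71.2 CPM, with every library below the jmjd-5(zr1234) range. Its log2 fold change against N2 was 2.20 ± 0.18 in jmjd-1.2(zr1010), 2.38 ± 0.19 in the triple mutant, 1.73 ± 0.19 in the quadruple mutant and 2.40 ± 0.19 in the double mutant.

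The 3 sqt genes rose by smaller amounts. In N2, sqt-1 was at 33.7, 34.4, 52.8 and 21.9 CPM and in jmjd-5(zr1234) at 114, 107, 128 and 128 CPM (3.22-fold, log2 1.69 ± 0.16, adjusted p = 3.33e-08, edgeR). In N2, sqt-2 was at 28.9, 30.2, 42.5 and 16.6 CPM and in jmjd-5(zr1234) at 104, 102, 121 and 117 CPM (3.63-fold, log2 1.86 ± 0.19, adjusted p = 8.18e-08). The lowest jmjd-5(zr1234) library of each lies well above the highest N2 library, replicate 3. In N2, sqt-3 was at 55.8, 52.7, 63.1 and 32.2 CPM and in jmjd-5(zr1234) at 134, 128, 151 and 154 CPM (2.67-fold, log2 1.41 ± 0.16, adjusted p = 2.55e-07). In the quadruple mutant the log2 fold changes were 1.24 ± 0.16 for sqt-1, 1.38 ± 0.19 for sqt-2 and 0.95 ± 0.16 for sqt-3 (adjusted p = 0.000106, edgeR), the last below the fold threshold.

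The smallest changes were those of dpy-13. Its N2 libraries were at 82.5, 68.4, 115 and 48.6 CPM and its jmjd-5(zr1234) libraries at 168, 178, 193 and 179 CPM. The N2 libraries span 2.37-fold and the jmjd-5(zr1234) libraries 1.15-fold. The increase was 2.13-fold in jmjd-5(zr1234) (log2 1.09 ± 0.18, adjusted p = 2.54e-05, edgeR) and 2.17-fold in the double mutant (log2 1.12 ± 0.18, adjusted p = 2.02e-05). The other 3 strains passed the p threshold but not the fold threshold, with log2 fold changes of 0.92 ± 0.18 in jmjd-1.2(zr1010), 0.97 ± 0.18 in the triple mutant and 0.77 ± 0.18 in the quadruple mutant. Without N2 replicate 3 these were 1.19, 1.23 and 1.03, and dpy-13 was called in all 3.

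**Figure D2:**
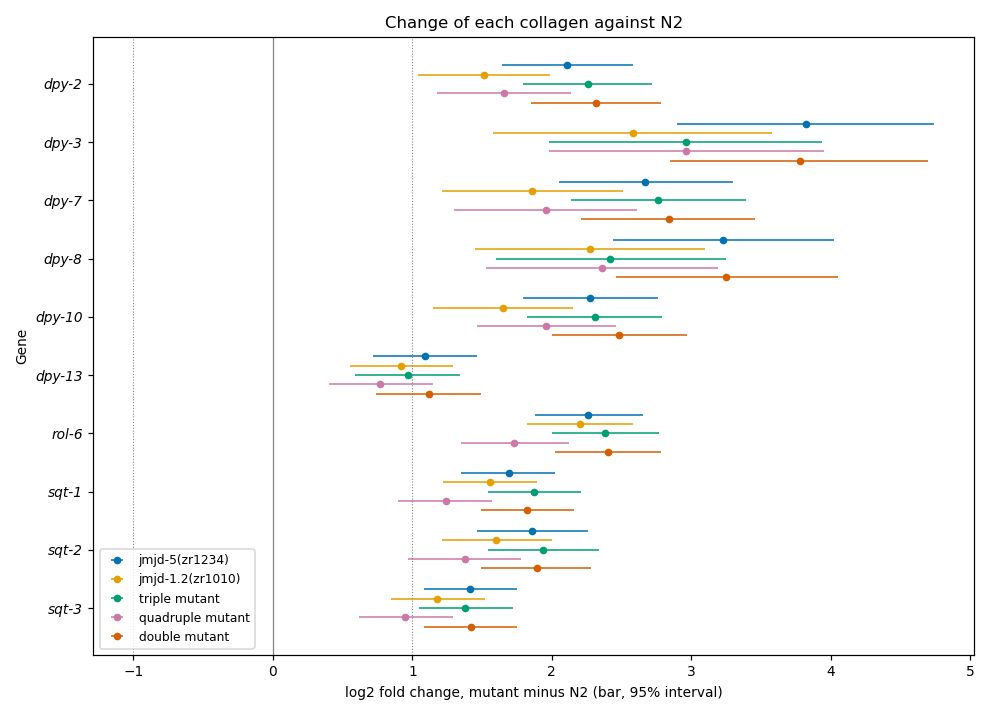
Log2 fold change of each collagen in each mutant strain against N2 (points) with its 95% interval (bars). The solid line marks 0 and the dotted lines mark log2 fold changes of 1 and -1. All points lie right of 0, from 0.77 for dpy-13 in the quadruple mutant to 3.82 for dpy-3 in jmjd-5(zr1234).

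Ranked by mean level, N2 was lowest without overlap for all 10 genes. The next was jmjd-1.2(zr1010) for the 5 furrow collagens and the quadruple mutant for the other 5. The highest mean was in the double mutant for 4 genes, in jmjd-5(zr1234) for 3 and in the triple mutant for 3. Among the mutant strains, neighbours in these orders overlapped in 39 of 40 steps. The exception was dpy-7 between the quadruple mutant (mean 19.8 ± 6.72 CPM, SD, n = 4) and jmjd-5(zr1234) (33.2 ± 5.59 CPM, SD, n = 4).

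Adding the alleles of the triple mutant to jmjd-5(zr1234) gave lower point estimates for all 10 collagens, and no call. By edgeR's quasi-likelihood test 0 of 10 passed both thresholds, where 1.01% of all genes were called lower, and 0 passed by DESeq2. At an unadjusted p under 0.05, 8 of 10 were lower, against 21.9% of all genes. Log2 differences ran from -0.87 ± 0.27 for dpy-8 (interval -1.43 to -0.31, adjusted p = 0.0234) and -0.86 ± 0.28 for dpy-3 (adjusted p = 0.0303) to -0.31 ± 0.18 for dpy-10 (adjusted p = 0.19). For rol-6 the difference was -0.53 ± 0.15 (adjusted p = 0.0135, edgeR), the lowest adjusted p of the 10. All libraries were lower, with no overlap, for dpy-3, dpy-7, dpy-13, rol-6 and sqt-1, against 18.2% of all genes. Replicate 3 of the quadruple mutant was the highest of that strain, or level with replicate 2 for dpy-13. Without it 2 of the 10 were called lower, dpy-3 at -1.15 and dpy-8 at -1.25, against 1.35% of all genes.

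Adding jmjd-1.2(zr1010) to jmjd-5(zr1234) gave no call either. The test called 0 of 10, against 0.261% of genes called higher and 0.229% lower, with 0 at an unadjusted p under 0.05, against 7.54% and 9.11% of genes, and 0 by DESeq2. The estimates ran from -0.04 for dpy-3 (95% interval -0.59 to 0.50) to 0.21 for dpy-2 (-0.14 to 0.55) and dpy-10 (-0.14 to 0.56), on the log2 scale. For sqt-3 the interval was -0.28 to 0.29. Over the 10 genes the lowest limit was -0.59, for dpy-3, and the highest 0.59, for dpy-7, and every interval includes 0.

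The interaction term asks whether the jmjd-5(zr1234) effect differed between the N2 background and the background of the other alleles. With the alleles of the triple mutant it was negative for all 10 collagens and called for 10 of 10, against 16.1% of genes called negative. For dpy-3 the jmjd-5(zr1234) effect was log2 3.82 in N2 and 0.0037 in the triple mutant, an interaction of -3.82 ± 0.55 (adjusted p = 1e-05, edgeR). For dpy-7 it was 2.67 and -0.81 (interaction -3.48 ± 0.38, adjusted p = 4.8e-07), and for rol-6 2.26 and -0.65 (-2.91 ± 0.24, adjusted p = 3.42e-08). The smallest interaction was that of dpy-13, -1.28 ± 0.24 (adjusted p = 0.000157, edgeR). With jmjd-1.2(zr1010) the interaction was called negative for 9 of 10, against 6.58% of genes, and by glmTreat for 1 of 10, against 0.268%. For dpy-8 the effect was 3.23 in N2 and 0.98 in jmjd-1.2(zr1010) (interaction -2.25 ± 0.48, adjusted p = 0.0016, edgeR), and for rol-6 2.26 and 0.20 (-2.06 ± 0.23, adjusted p = 3.08e-06). The remaining gene, dpy-13, was at -0.89 ± 0.24 (adjusted p = 0.00781). Both terms use the same N2 and jmjd-5(zr1234) libraries. The effects within the triple mutant and within jmjd-1.2(zr1010) are estimates without a test or interval of their own. With the log2 library total as a term the second count was 8, against 3.28% of genes, without dpy-2 (-0.94) and dpy-7 (-1.24, adjusted p = 0.0116) and with dpy-13 (-1.18).

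**Figure D3:**
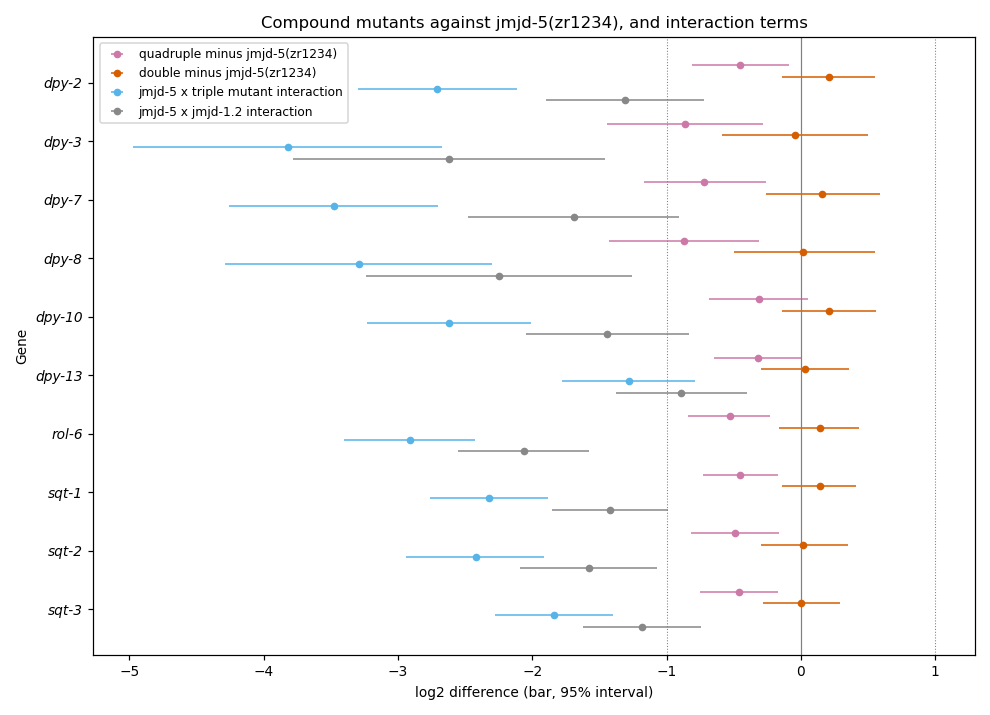
Log2 differences, with 95% intervals (bars), of the quadruple mutant and of the double mutant from jmjd-5(zr1234), and the interaction terms, for each collagen. The solid line marks 0 and the dotted lines mark 1 and -1. The differences from jmjd-5(zr1234) lie between -0.87 and 0.21, while the interactions reach -3.82.

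The furrow collagens and the other 5 did not vary together in all libraries. Summed over the 5 furrow collagens, N2 libraries were at 21.7 to 38.2 CPM and mutant libraries at 89.0 to 259 CPM. Summed over the other 5 genes, they were at 129.8 to 307 CPM and 453 to 742 CPM. The furrow share of the summed CPM of all 10 genes was 7.54% to 15.5% in N2, 12.6% to 18.4% in jmjd-1.2(zr1010), 17.6% to 20.9% in the triple mutant and 21.1% to 24.3% in jmjd-5(zr1234). In the quadruple mutant it was 22.2%, 16.7%, 23.3% and 16.4%, with replicates 2 and 4 lower than the other pair. In the double mutant it was 26.6%, 15.4%, 22.2% and 25.6%, and replicate 2 stood low, and its furrow sum of 117 CPM was below the 199.5 CPM or more of the other 3 libraries while its sum of the other 5 genes, 643 CPM, was near theirs. Across the 24 libraries the Pearson correlation of log2 CPM had a median of 0.92 over the 10 pairs of furrow genes, 0.97 over the 10 pairs of the others and 0.90 over the 25 mixed pairs. After strain means were removed the medians were 0.71, 0.84 and 0.42, and mixed pairs reached down to -0.11. The points are the same 24 libraries in each case and share their depth and scaling.

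**Figure D4:**
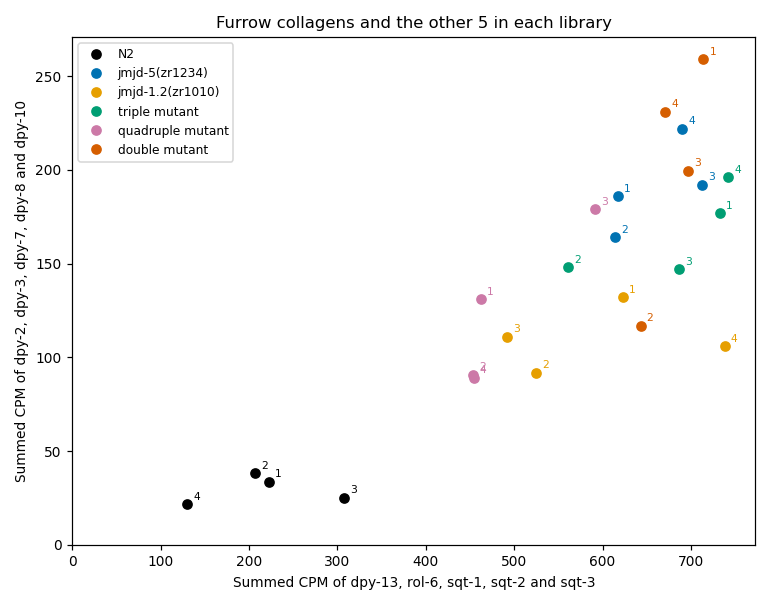
Summed CPM of the 5 furrow collagens (y axis) against that of the other 5 collagens (x axis), 1 point per library, coloured by strain and numbered by replicate. The 4 N2 points lie at 129.8 to 307 CPM on the x axis and 21.7 to 38.2 CPM on the y axis, apart from all 20 mutant points.

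The genes whose log2 CPM was most like the mean z-scored pattern of the 10 collagens over the 24 libraries were qua-1 (r = 0.988), H42K12.3 (0.983), mlt-9 (0.983), ptr-4 (0.980) and pes-8 (0.978). With strain means removed they were qua-1 (0.970), mlt-9 (0.956), H42K12.3 (0.937), T27A10.6 (0.936) and T06D8.10 (0.936). In C. elegans, qua-1 encodes a hedgehog-related protein, ptr-4 a patched-related protein and mlt-9 is named for moulting defects. Chosen after the values were seen, the gene most like the furrow collagens alone was lpr-5 (0.989), a lipocalin-related gene, and the one most like the other 5 was the collagen col-17 (0.990).

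Other collagens named for body shape moved the same way where called. In jmjd-5(zr1234), 7 of 11 were called higher and 0 lower, with a list median of 1.60 against 0.10 for all genes. They were bli-1, bli-2, dpy-4, dpy-9, lon-3, rol-1 and rol-8. Among them dpy-9, another furrow collagen, was at a mean of 11.4 CPM in N2 and 37.6 CPM in jmjd-5(zr1234) (log2 1.70 ± 0.23, adjusted p = 2.63e-06, edgeR), and bli-1, a collagen of the adult cuticle struts, was higher by log2 2.49 ± 0.39 (adjusted p = 1.41e-05). The counts were 6 in jmjd-1.2(zr1010), 6 in the triple mutant, 5 in the quadruple mutant and 7 in the double mutant, with 0 lower in each. Of all genes, 16.6%, 8.44%, 10.2%, 7.44% and 16.6% were called higher in jmjd-5(zr1234) and then in these strains in turn. Of all genes, 1.41% were called lower in jmjd-5(zr1234), 0.599% in jmjd-1.2(zr1010), 0.879% in the triple mutant, 0.440% in the quadruple mutant and 1.03% in the double mutant.

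Genes for collagen processing enzymes were mostly below the fold threshold. Of 11, doxa-1, a maturation factor of the cross-linking oxidase, was called higher in jmjd-5(zr1234) (2.14-fold, adjusted p = 1.92e-05, edgeR) and in the double mutant, and 0 were called in the other 3 strains by that test. At an unadjusted p under 0.05, 5 to 7 of the 11 were higher and 0 to 3 lower across the 5 strains. By that rule 39.3% of all genes were higher and 29.7% lower in jmjd-5(zr1234), 32.6% and 23.5% in jmjd-1.2(zr1010), 31.1% and 22.3% in the triple mutant, 31.2% and 13.7% in the quadruple mutant, and 35.8% and 25.1% in the double mutant. The list medians were 0.17 to 0.48. Among the list, dpy-18, a prolyl hydroxylase subunit, was higher by log2 0.51 ± 0.12 in jmjd-5(zr1234) (adjusted p = 0.00104), under the fold threshold. The value for bli-4, a proprotein convertase, was -0.12 ± 0.09 (adjusted p = 0.244).

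Of 15 moult regulators and moulting factors, 10 were called higher in jmjd-5(zr1234), 9 in jmjd-1.2(zr1010), 9 in the triple mutant, 6 in the quadruple mutant and 10 in the double mutant, and 0 were called lower. Of all genes tested, 16.6%, 8.44%, 10.2%, 7.44% and 16.6% were called higher in these strains. In jmjd-5(zr1234), mlt-11, a protease inhibitor-like gene, was higher by log2 3.35 ± 0.43 (adjusted p = 1.01e-06, edgeR), lin-42, the period-like timing gene, by 2.29 ± 0.33 (adjusted p = 5.27e-06), and noah-1, a matrix protein gene, by 1.93 ± 0.28 (adjusted p = 5.68e-06). The value for nhr-23, a nuclear receptor needed for moulting, was -0.01 ± 0.07 (adjusted p = 0.88), and -0.24 ± 0.07 in the triple mutant (adjusted p = 0.00683), under the fold threshold. The genes nas-37, nhr-25, nhr-67 and blmp-1 were not called against N2 in any strain. In the quadruple mutant against jmjd-5(zr1234), lin-42 (-1.17 ± 0.27, adjusted p = 0.00455, edgeR) and mlt-11 (-1.36 ± 0.31, adjusted p = 0.00481) were called lower. Summed over the 15 genes, N2 libraries were at 352 to 427 CPM and mutant libraries at 529 to 1176 CPM, and the part of this list in the collagen differences was not tested.

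**Figure D5:**
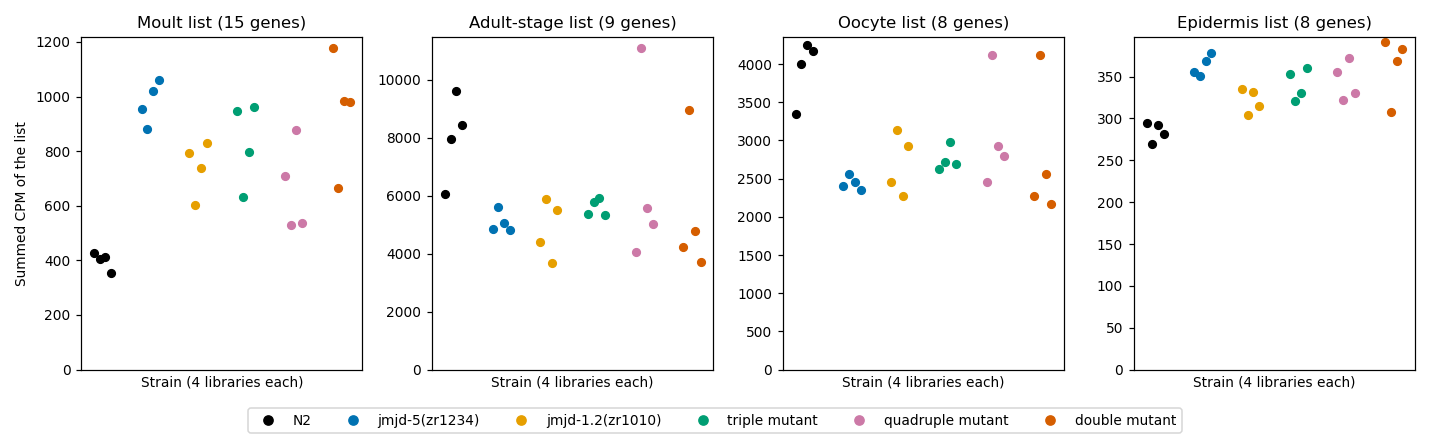
Summed CPM of the moult, adult-stage, oocyte and epidermis lists in each library (points), by strain, with a separate y axis from 0 in each panel. The epidermis sum includes dpy-7, which is itself among the collagens described and lowest in N2. The adult-stage sums are 6057 to 9619 CPM in N2. In the mutants they are 3686 to 5925 CPM, apart from quadruple mutant replicate 2 (11097 CPM) and double mutant replicate 2 (8962 CPM). The moult and epidermis sums are lowest in the N2 libraries, at 352 to 427 CPM and 269 to 294 CPM, and the oocyte sums are highest there, at 3349.7 to 4249 CPM, apart from quadruple mutant replicate 2 and double mutant replicate 2.

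Of 8 epidermis genes, 3 were called higher in jmjd-5(zr1234), against 16.6% of all genes. The other strains had 2 or 3 called higher, against 7.44% to 16.6% of all genes. In jmjd-5(zr1234) the genes were sta-2 (2.30-fold, adjusted p = 1.43e-07, edgeR), bus-8 (5.90-fold, adjusted p = 1.23e-06) and dpy-7, which is itself among the collagens described. The epidermal transcription factor genes lin-26 (-0.34 ± 0.05) and elt-3 (0.28 ± 0.08) were below the fold threshold in jmjd-5(zr1234). Of 9 adult-stage genes, the yolk protein genes and adult collagens, 0 were called in any of the 5 strains by edgeR, and at an unadjusted p under 0.05 0 to 7 were lower and 1 or 2 higher. Estimates in jmjd-5(zr1234) were negative for the yolk protein genes and col-19 (-0.64), and positive for col-7 (0.66) and col-62 (0.56). The signs were the same in all 5 strains. Their summed level was 6057 to 9619 CPM in N2. It was 11097 and 8962 CPM in replicate 2 of the quadruple and double mutants, and 3686 to 5925 CPM in the other mutant libraries. Of 8 oocyte genes, 0 were called by edgeR, and 2 to 8 were lower at an unadjusted p under 0.05. By that rule 13.7% to 29.7% of all genes were lower and 31.1% to 39.3% higher across the 5 strains. Of 8 sperm genes, spe-9 and spe-41 were called higher in jmjd-5(zr1234) and in the double mutant, where 16.6% of all genes were called higher, and 0 in the other 3, where 3 to 5 were higher and 0 or 1 lower at an unadjusted p under 0.05. Summed oocyte levels were 3349.7 to 4249 CPM in N2 and 2348 to 2559.9 CPM in jmjd-5(zr1234), and 4116 and 4126 CPM in replicate 2 of the quadruple mutant and of the double mutant, which were also the shallowest libraries. The part of these levels in the collagen differences was not tested. Early embryo genes summed to 1.05 to 5.73 CPM, and 1 of 7 passed the filter, with 0 called and 0 at an unadjusted p under 0.05.

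Genes that respond to loss of furrows or to cuticle damage were described by the same counts. Of 9, nlp-29, nlp-30 and nlp-34, antimicrobial peptide-like genes, and hmit-1.1, a myo-inositol transporter gene, were called higher in jmjd-5(zr1234), and 3 or 4 were called in each other strain, with 0 lower. Of all genes, 16.6% were called higher in jmjd-5(zr1234) and 7.44% to 16.6% in the other strains. At an unadjusted p under 0.05, 5 or 6 of the 9 were higher and 0 to 2 lower. That rule took in 31.1% to 39.3% of all genes as higher and 13.7% to 29.7% as lower, depending on the strain. The values in jmjd-5(zr1234) were -0.52 ± 0.19 for nlp-27 (adjusted p = 0.0192, edgeR), -0.35 ± 0.11 for gst-4 (adjusted p = 0.00935) and 0.10 ± 0.10 for gpdh-1 (adjusted p = 0.39), and the estimates for nlp-27 and gst-4 were negative in all 5 strains. The change was log2 2.02 ± 0.21 for nlp-30 (adjusted p = 1.13e-07, edgeR) and 1.14 ± 0.11 for hmit-1.1 (adjusted p = 5.33e-08). The summed level of the 9 genes was 305 to 350.3 CPM in N2 and 356 to 479 CPM in the mutant libraries.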

How the data were processed

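RNA was from whole young adults (TRIzol, TruSeq RNA Library Prep Kit v2, which does not mark strand). Alignment by the authors was to ce10, with STAR. They removed reads matching several places and PCR duplicates, and deposited whole-number read counts per gene made with featureCounts at its defaults, which do not use strand, 1 table per library, from an annotation not given in the sources used here, so reads of a gene and an antisense partner cannot be told apart. Their tables of fold changes and p-values, the peak lists and the germline RNA were not used. The counts were tested in 1 fit of 23 samples (24 libraries, N2 replicates 2 and 4 summed) with edgeR 4.0.16 (R 4.3.3), with TMM scaling, filterByExpr, strain as the factor and glmQLFTest, and p-values were Benjamini-Hochberg adjusted over 15696 genes. Genes were called at an adjusted p under 0.01 with a change of 1 or more on the log2 scale. CPM values are TMM-normalized, per library, and N2 means average replicates 2 and 4. CPM depends on gene length and was compared only within a gene or between sums of the same genes. Likeness used log2(CPM + 1) and names 5 genes per measure. Tests were tried on simulated counts. Names, chromosomes and neighbours came from a RefSeq gene table of WBcel235, another build than ce10, so no coordinates are given. All 10 collagens are described, and other genes come from lists of body-shape collagens, processing enzymes, moulting, adult-stage and furrow-loss response genes and epidermis, oocyte, sperm and early embryo markers. The collagens and the lists were chosen with earlier results of these data known. Alternatives were DESeq2 1.42.0, other scalings, filters and thresholds, a fold test (glmTreat), separate or further summed libraries, a depth term, a replicate block and leaving out each library.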

Additional observations from a re-analysis of the deposited data

Results flagged for a closer look

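For all 20 interaction values of the 10 collagens, the jmjd-5(zr1234) effect differed between the N2 background and another background at an adjusted p under 0.01 by edgeR's quasi-likelihood test, and 19 of them also reached 1 on the log2 scale. The remaining value was -0.89 for dpy-13 with jmjd-1.2(zr1010). At that adjusted p, 23.4% of all genes were negative with the alleles of the triple mutant and 12.9% with jmjd-1.2(zr1010). With the fold threshold added, the shares were 16.1% and 6.58%. With the alleles of the triple mutant the differences, on the log2 scale, were -2.71 for dpy-2, -3.82 for dpy-3, -3.48 for dpy-7, -3.29 for dpy-8, -2.62 for dpy-10, -1.28 for dpy-13, -2.91 for rol-6, -2.32 for sqt-1, -2.42 for sqt-2 and -1.84 for sqt-3. With jmjd-1.2(zr1010) they were -1.31 for dpy-2, -2.62 for dpy-3, -1.69 for dpy-7, -2.25 for dpy-8, -1.44 for dpy-10, -2.06 for rol-6, -1.42 for sqt-1, -1.58 for sqt-2 and -1.18 for sqt-3. All of them rest on the N2 libraries, which were the lowest for each gene. No library stood apart from the rest of its strain by Dixon's test in the 50 groups of 4 mutant libraries, where chance gives about 1 in 20.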

How the results depend on the processing

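Of 2020 values of single collagens under the alternatives, 1940 kept their direction and their side of the thresholds, 33 were no longer called, 28 became called and 19 changed sign. Of the 33, 30 came from glmTreat, which tests against a change of 1 instead of 0. Under it the collagens called were 1 in jmjd-1.2(zr1010) and 0 in the quadruple mutant against N2, and 1 for the jmjd-1.2 interaction, where 0.886%, 0.268% and 0.268% of all genes were called in the same direction. DESeq2 changed no call. All 19 sign changes were in the double mutant against jmjd-5(zr1234), where none of the 10 was called. There dpy-3 was 0.0041 with jmjd-5(zr1234) replicates 3 and 4 summed, and 0.13 without the shallowest library of each compound mutant, an alternative chosen after seeing the data. Without those libraries dpy-13 was -0.04, and with a depth term it was -0.02. For sqt-3 the value was -0.01 with upper-quartile scaling and -0.0044 without a filter. Leaving out single libraries gave -0.20 to 0.14 for dpy-3, -0.11 to 0.18 for dpy-8, -0.03 to 0.08 for dpy-13, -0.04 to 0.12 for sqt-2 and -0.05 to 0.05 for sqt-3 in that comparison. It gave 0 to 2 collagens called lower in the quadruple mutant against jmjd-5(zr1234), where 0.409% to 1.35% of all genes were called lower. Without the shallowest libraries 8 collagens were called in the quadruple mutant and 9 in the double mutant against N2, dpy-13 being at 0.95 in the latter. Of all genes, 7.33% and 16.5% were called higher in these 2 strains. N2 dpy-3 values rest on 6 to 13 reads a library, which limits the precision of its fold changes.

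Replicate numbers are shared by all strains, but only 28 of 60 same-numbered pairs correlated above 0.1 in their deviations from strain means (-0.255 to 0.615). Each library had 4 candidates, and 25 of 60 correlated best with their own number. The highest correlations were between replicates 2, at 0.615 for jmjd-1.2(zr1010) with the double mutant and 0.519 for the quadruple with the double mutant. For N2 with jmjd-5(zr1234), replicates 2 were at 0.009. The numbers were not taken to pair the samples in the main fit, and whether the replicates numbered 2 share an origin was not tested. With the replicate number as a block, the collagens called higher against N2 were 10 in each strain but the quadruple mutant, where 8 were, and 10 and 9 were negative for the interactions. Of all genes, 16.7% were called higher in jmjd-5(zr1234), 8.99% in jmjd-1.2(zr1010), 10.6% in the triple, 7.79% in the quadruple and 16.8% in the double mutant. For the interactions 16.9% and 8.11% of all genes were called negative. The gain over the unblocked fit was dpy-13, which was also called when the 24 libraries were kept separate without a block.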
